A study of Homo sapiens with 33 samples.

Results

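The zinc finger genes on human chromosome 19 comprised the 249 genes of the RNA-seq table, of 35805 listed, whose symbol is ZNF followed by a number, with at most 1 letter after it, and whose listed chromosome is 19. All 249 also had windows in the ChIP-seq table, where they accounted for 1455 of 153958 windows around annotated start sites. One 5 kb window was used per gene, the one with the highest H3K27me3 in wild-type cells, and 176 of the 249 chosen windows contained the start of the gene as annotated in GENCODE v44. On the RNA side 210 of the 249 genes reached a mean of 0.1 RPM (a read count divided by library size) over all libraries and were among the 20608 genes tested. Another 17 had no read in any of the 12 libraries.

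Most of these genes encode KRAB zinc finger proteins, which bind DNA through arrays of C2H2 fingers and, through the KRAB box, recruit the corepressor TRIM28 and the H3K9 methyltransferase SETDB1. Many of them silence transposable elements. The genes arose by tandem duplication, lie in clusters on chromosome 19, and their bodies are known as domains of H3K9me3, a mark deposited by enzymes other than EZH2. EZH2 is the catalytic subunit of Polycomb repressive complex PRC2, which methylates H3K27.

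The cells were H9, an established human embryonic stem cell (ESC) line, in 4 genotypes. WT cells were EZH2+/+. Het cells were an EZH2-/+ line derived as a clone after Cas9 cutting of an early EZH2 exon. Null (EZH2-/-) and Null+EZH2 cells came from the Het line, both carried a doxycycline-inducible piggyBac EZH2 transgene, and only Null+EZH2 cells received doxycycline, so a change that arose in that clone is shared by both. The cells were grown on mouse embryonic fibroblasts and sorted for the ESC surface antigen SSEA4. RNA-seq had 3 libraries per genotype, and each histone mark or input column of the ChIP-seq table was the mean of 2 libraries on the log2 scale, without separate replicates, so that ChIP-seq differences are given without a test. EZH2 itself was profiled in WT cells alone, in 1 library. EZH2 RNA was 59.5 to 68.6 RPM in WT, 45.7 to 55.4 in Het, 8.65 to 11.5 in Null and 256 to 385 in Null+EZH2 libraries. All 10 ESC markers examined, POU5F1 and NANOG among them, were present in every genotype, with summed levels of 2541 to 3114 RPM in WT and 3883 to 4408 in Null libraries. Not all of them were higher in Null. POU5F1 (617 to 792 RPM in WT and 1119 to 1524 in Null) and NANOG (20.3 to 24.0 and 84.5 to 92.4) were. SOX2 was lower in Null (203 to 249 and 88.0 to 135), and SALL4 overlapped (94.6 to 139 and 73.2 to 105). The RNA libraries held 16587860 to 36589089 reads on genes, of which 0.170% to 0.272% fell on the 249 genes.

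Of the 249 genes, 244 were annotated as protein-coding in GENCODE, and a pattern for the KRAB A box was found in the proteins of 188. Their proteins held 3120 C2H2 fingers, 98.5% of them encoded in the last exon. ZNF121, a gene without the KRAB A pattern, is shown here because the window with the strongest H3K27me3 signal of all 249 genes in Null ESCs overlapped its finger array. Its first 3 finger units, each of 84 bases, are given as coding-strand DNA of GRCh38 (minus strand of chromosome 19, at chr19:9566594-9566677, chr19:9566510-9566593 and chr19:9566426-9566509), with the codons of the zinc-binding Cys, Cys, His and His in capitals.
ZNF121 finger 1: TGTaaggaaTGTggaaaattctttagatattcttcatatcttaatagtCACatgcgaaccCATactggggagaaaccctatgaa
ZNF121 finger 2: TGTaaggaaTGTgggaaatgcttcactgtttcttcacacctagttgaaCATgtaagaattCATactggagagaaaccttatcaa
ZNF121 finger 3: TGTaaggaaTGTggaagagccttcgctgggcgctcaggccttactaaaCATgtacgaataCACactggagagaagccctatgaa
The 9 units of ZNF121 were 53.6% to 82.1% identical to each other (median 69.0% over 36 pairs). Arrays of this kind recur through the clusters, and 160 of the 249 genes overlapped another listed gene, 103 of them a gene on the opposite strand. Counting disregarded strand, so reads from overlapping genes and near-identical paralogs cannot be told apart in the RNA values.

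H3K27me3 signal at these genes did not follow the rest of the genome when EZH2 was absent. The median over the 249 chosen windows was 3.15 RPM in WT, 3.08 in Het, 4.40 in Null and 3.24 in Null+EZH2 ESCs. Over all 35683 gene names, each with its window chosen the same way, the medians were 1.96, 1.69, 0.87 and 1.59 RPM. The median log2 difference between Null and WT was +0.42 over the ZNF genes and -0.94 over all names. Signal was higher in Null than in WT at 174 of the 249 genes (69.9%), against 20.9% of all names. It was at least 2-fold higher at 23 genes (9.24%; background 3.37%) and at least 2-fold lower at 24 (9.64%; background 48.0%). Against Null+EZH2 ESCs the Null values were at least 2-fold higher at 14 (background 1.9%) and at least 2-fold lower at 14 (background 37.3%), with a median of +0.41. Het and Null+EZH2 ESCs were close to WT, with 0 genes at least 2-fold higher in Het (background 0.653%) and 2 lower (background 4.49%), and 0 higher in Null+EZH2 (background 1.18%) and 3 lower (background 5.6%).

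Input chromatin did not move with this signal, as its median at the 249 windows was 1.35 RPM in WT and 1.29 in Null ESCs and no window differed 2-fold between them. In Null ESCs 166 of the 249 windows (66.7%; background 6.38%) held at least 2 times as much H3K27me3 signal as input. The same was true of 65 of 263 ZNF genes on other chromosomes (24.7%) and of 17.1% of the other gene names on chromosome 19. Against their own input, 147 of the 249 windows were 2-fold over in WT ESCs (59.0%; background 31.4%). In Het ESCs 141 were (56.6%; background 26.6%), and in Null+EZH2 ESCs 166 were (66.7%; background 24.7%). The share of the ZNF windows thus ranged from 56.6% to 66.7% over the genotypes, while the background was lowest in Null ESCs. The threshold used in the study to define marked promoters, 0.1 log2 RPKM or 5.36 RPM in a 5 kb window, was exceeded in Null ESCs at 81 of the 249 windows (32.5%; background 1.54%) and in WT ESCs at 11 (4.42%; background 17.5%). RPM are shares of a library and no spike-in was used, so a higher value in Null ESCs cannot be told apart from an unchanged amount of signal in a library that lost signal elsewhere. The windows were chosen for their WT value, and whether the antibody signal in Null ESCs is H3K27me3 was not tested.

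**Figure D1:**
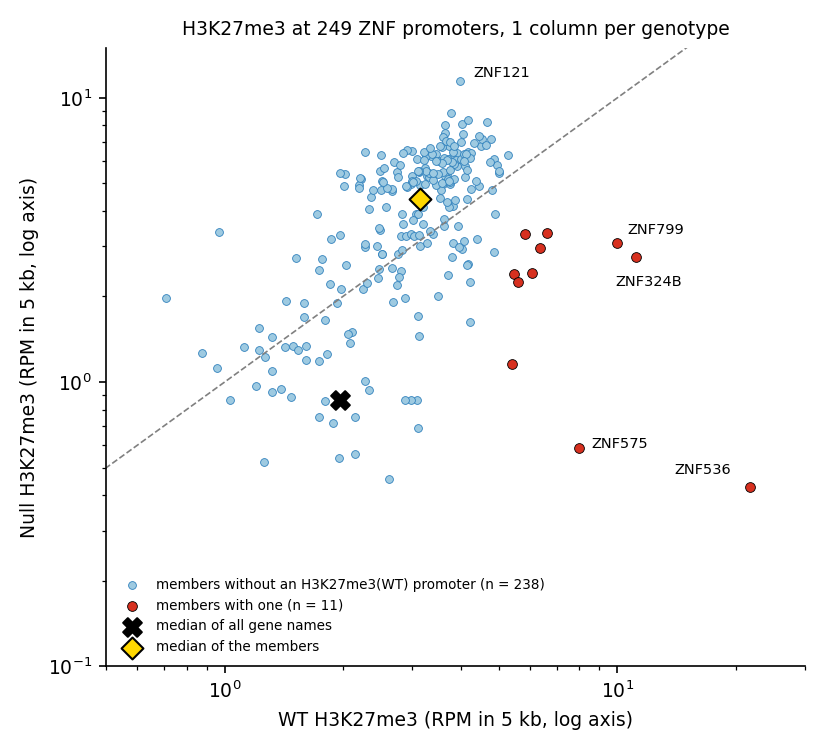
H3K27me3 in WT (x axis) and Null (y axis) ESCs, in RPM per 5 kb window on log axes, with 1 point for each of the 249 chromosome 19 ZNF genes. Most points lie above the line of equality, and the 11 promoters over the study's WT threshold, led by ZNF536 at 21.7 RPM in WT, lie below it.

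Inspection of single genes showed how large the signal in Null ESCs was. The window of ZNF121 at chr19:9565243-9570243 gave 3.99 RPM in WT, 4.97 in Het, 11.4 in Null and 5.31 in Null+EZH2 ESCs, with an input of 1.25 RPM in Null. It overlapped 735 bases of the finger array printed above and its centre lay 16761 bases from the start annotated in GENCODE. At the window nearest that start ZNF121 had 2.11 RPM in WT and 3.87 in Null ESCs. The excess in Null was thus present in both windows but larger in the one that overlapped the finger array, most of which is other sequence. ZNF567 had 3.77 RPM in WT, 3.81 in Het, 8.87 in Null and 3.64 in Null+EZH2 ESCs. ZNF701 had 4.18 RPM in WT and 8.39 in Null, and ZNF808, whose chosen window overlaps that of ZNF701, had 4.02 and 8.12. ZNF317 had 4.66 RPM in WT, 8.24 in Null and 4.93 in Null+EZH2. These 5 were chosen for the highest Null values, so their order among the genotypes is a description.

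Windows over finger arrays and windows elsewhere were compared within genes. A window counted as over an array if it shared any base with one. The median overlap in the 119 such windows of the ZNF genes was 903 bases of 5 kb, so signal cannot be placed on the fingers themselves. For 64 ZNF genes with windows of both kinds, the highest window over the array was set against the highest window elsewhere. The array window was the higher in 41 genes in Null ESCs, in 29 in Null+EZH2, in 24 in Het and in 22 in WT. The median of these highest values over the 64 genes was 5.45 RPM over the array and 4.40 elsewhere in Null, and 2.63 and 3.16 in WT. Over all ZNF genes windows elsewhere were more numerous (1336 against 119), so these maxima are not levels per window. Among the chosen windows, 30 overlapped an array and had a Null median of 5.38 RPM, while the 219 others had 4.14 (WT 3.23 and 3.15). Over all windows of the ZNF genes, 52.1% of 119 over an array and 64.7% of 1336 elsewhere were 2-fold over the Null input, and 61.3% and 77.8% were higher in Null than in WT, so the excess over arrays within genes did not hold for these shares. The signal in Null ESCs was present both in windows that overlapped a finger array and in windows that did not.

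The clusters differed widely from each other. Members less than 1 Mb apart were grouped, which gave 9 clusters of at least 5 genes, with 11 genes in none. In the pericentromeric cluster between 19.7 and 24.1 Mb, 36 of 36 ZNF genes were higher in Null than in WT, 35 were at least 2-fold over the Null input, and the median was 3.02 RPM in WT and 5.08 in Null. Of the 26 genes between 36.2 and 37.8 Mb, 23 were 2-fold over input (median 3.39 in WT and 5.46 in Null), and of the 27 between 11.5 and 12.6 Mb, 21 were (3.83 and 5.27). At 7.07 to 9.79 Mb, the cluster of ZNF121 and ZNF317, 12 of 16 genes were 2-fold over input, with medians of 3.00 in WT and 5.60 in Null.

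In the remaining clusters the Null median was closer to the WT median. At 2.82 to 2.94 Mb 3 of 5 genes were 2-fold over the Null input, with medians of 3.82 RPM in WT and 4.88 in Null, and at 34.7 to 35.0 Mb 3 of 5 were (3.80 and 3.35). In the cluster between 51.6 and 53.6 Mb 30 of 40 genes were 2-fold over the Null input, with medians of 3.36 RPM in WT and 3.75 in Null. In the largest cluster, 59 genes between 55.5 and 58.5 Mb near the end of the long arm, 30 were, and the medians were 3.01 and 2.99. At 43.5 to 45.1 Mb 9 of 24 genes were 2-fold over input (3.09 and 2.92). None of the 11 genes outside clusters, which include ZNF536, ZNF507 and ZNF574, was 2-fold over input, and their median was 2.15 RPM in WT and 1.01 in Null. Genes with other symbols inside the same spans followed the ZNF genes around them in several clusters: 48 of 49 such names at 19.7 to 24.1 Mb and 32 of 33 at 36.2 to 37.8 Mb were 2-fold over the Null input, against 22 of 89 at 7.07 to 9.79 Mb and 11 of 52 at 43.5 to 45.1 Mb. Some listed genes with other symbols overlap ZNF genes, such as ZNF559-ZNF177 and ZNF561-AS1, so these names are not independent of the members.

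**Figure D2:**
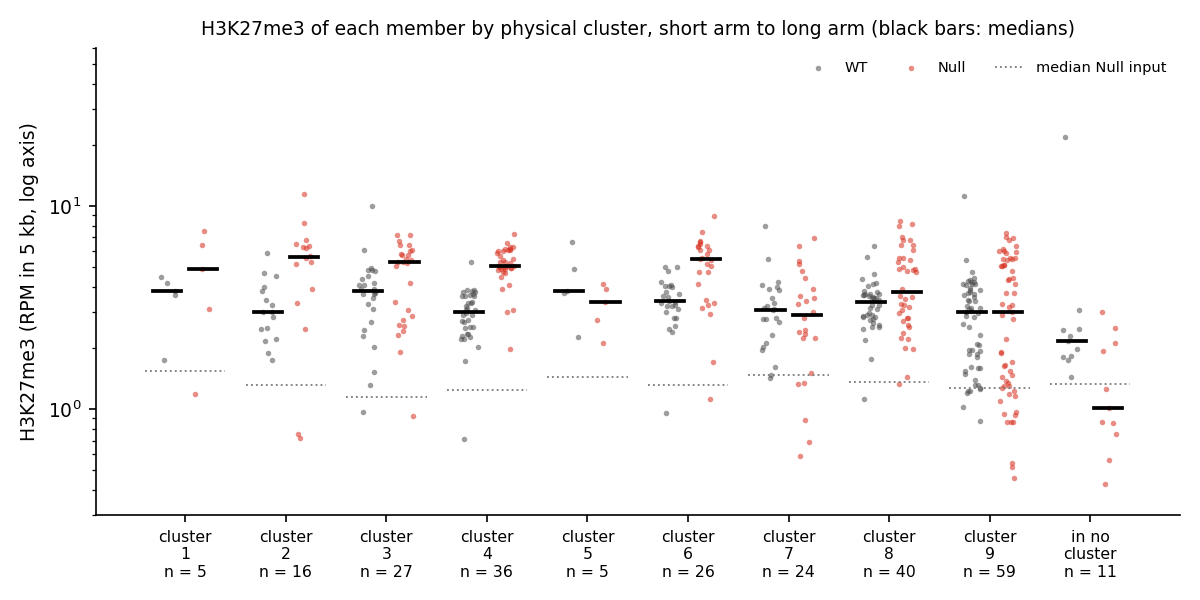
H3K27me3 in RPM (log axis) of each chromosome 19 ZNF gene in WT and Null ESCs, by cluster in order along the chromosome, with the cluster medians. The Null median stands above the WT median in the clusters at 7.07, 11.5, 19.7 and 36.2 Mb (5.60, 5.27, 5.08 and 5.46 RPM), and below it for the 11 genes in no cluster (1.01 RPM).

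The KRAB A pattern went with a higher Null signal and more H3K4me3 with a lower one, while the relation to RNA was weaker. Of the 188 genes with the KRAB A pattern 141 (75%) were at least 2-fold over the Null input, against 21 of the 56 protein-coding genes without it (37.5%). When the 249 genes were divided into 3 equal groups by H3K4me3 in Null ESCs, 75 of 83 in the lowest group, 60 of 83 in the middle group and 31 of 83 in the highest were 2-fold over input. The median H3K27me3 of these groups was 5.39, 4.17 and 2.45 RPM in Null ESCs and 3.24, 3.58 and 2.66 in WT, and the median RNA level in Null was 0.050, 3.37 and 6.39 RPM. Across the 210 genes tested for RNA, Spearman's rho between H3K4me3 and H3K27me3 in Null ESCs was -0.55, a description over genes that share libraries and, in 8 neighbouring pairs, overlapping windows. Between the mean RNA level over all libraries and H3K27me3 in Null ESCs rho was -0.23. Across all 249 genes EZH2 binding in WT ESCs was inversely related to H3K27me3 in Null (rho -0.59), while WT and Null H3K27me3 had a rho of 0.51 and WT and Null+EZH2 one of 0.80.

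**Figure D3:**
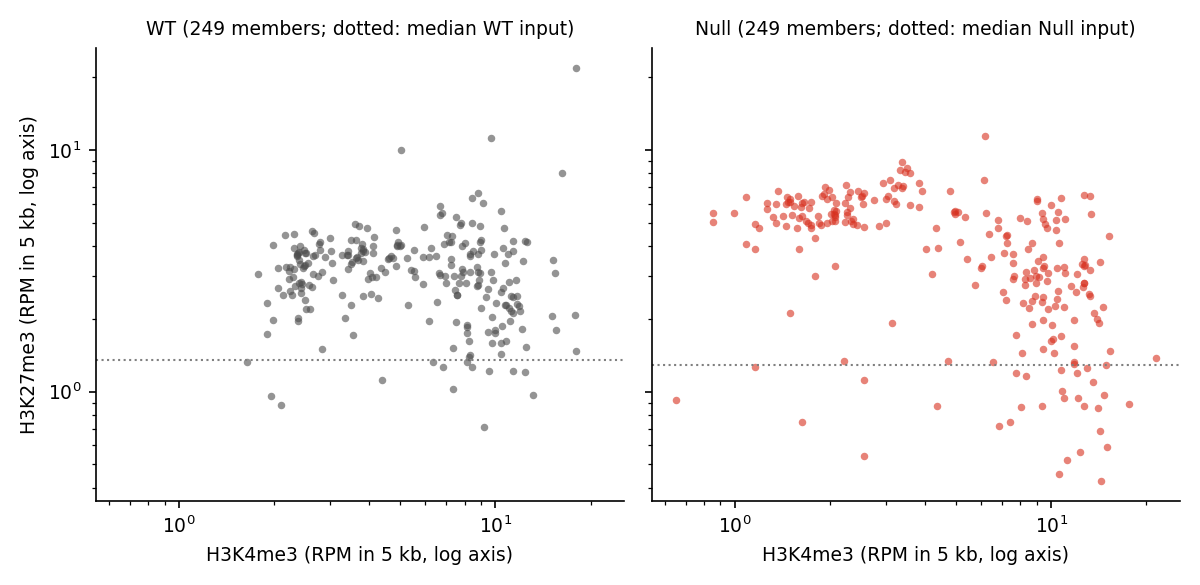
H3K27me3 (y axis) against H3K4me3 (x axis), in RPM per 5 kb window on log axes, for the 249 chromosome 19 ZNF genes. In Null ESCs the genes with the least H3K4me3 had the most H3K27me3 (medians 5.39, 4.17 and 2.45 RPM from the lowest to the highest of the 3 groups of H3K4me3).

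A small minority had a marked promoter in WT ESCs. The rule for an H3K27me3(WT) promoter (input under and H3K27me3 over the threshold in WT) was taken from the study. Here it was applied to the window of each gene with the highest WT H3K27me3. In that window 11 of the 249 genes passed, against 6235 of 35683 gene names (background 17.5%). The study's own set of marked promoters was smaller, so these counts are not those of the study. Because the 11 genes were chosen on their WT value, their lower values elsewhere are given as a description. ZNF536, which encodes a repressor of neuronal differentiation, had 21.7 RPM in WT, 24.9 in Het, 0.43 in Null and 20.03 in Null+EZH2 ESCs, with an input of 0.60 RPM in Null. It also had the highest EZH2 of all 249 genes, 2.18 RPM. ZNF575 had 7.99 RPM in WT, 8.80 in Het, 0.59 in Null and 9.33 in Null+EZH2. ZNF536 and ZNF575 were thus at or below the level of input in Null ESCs and near their WT level in Null+EZH2 ESCs.

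Most other marked promoters kept more signal in Null ESCs. ZNF324B had 11.1 RPM in WT, 12.5 in Het, 2.76 in Null and 10.3 in Null+EZH2. ZNF799 had 9.95 RPM in WT and 3.09 in Null, ZNF792 6.61 and 3.35, ZNF836 6.35 and 2.96, ZNF709 6.05 and 2.42, and ZNF699 5.84 and 3.32. ZNF600, ZNF284 and ZNF324 lay just over the threshold in WT, at 5.58, 5.46 and 5.40 RPM. All 11 were lower in Null than in WT, and 2 of them were still at least 2-fold over input. EZH2 was low at several of them, at 0.064 RPM for ZNF709, 0.11 for ZNF836, 0.13 for ZNF799, 0.14 for ZNF699, 0.15 for ZNF600 and 0.18 for ZNF792, against a median of 0.29 over all gene names. These values were usual for the 249 genes, whose median was 0.15 RPM (quartiles 0.064 and 0.26). After ZNF536 the highest EZH2 values were at ZNF580 (1.13 RPM), ZNF581 (0.85), ZNF579 (0.76) and ZNF837 (0.73), whose H3K27me3 in WT was 2.06 to 2.88 RPM. H3K4me3 at ZNF580 was 17.8 RPM in WT and 21.4 in Null ESCs, so ZNF580 had an H3K4me3-rich promoter with little H3K27me3.

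Active marks differed 2-fold between Null and WT at few of the ZNF promoters. H3K4me3 was at least 2-fold higher in Null than in WT at 1 gene (background 2.47%) and at least 2-fold lower at 20 (8.03%; background 12.6%), with a median log2 difference of -0.11. H3K27ac was at least 2-fold higher at 14 genes (5.62%; background 9.18%) and lower at 9 (3.61%; background 3.33%), with a median of +0.20. H3K4me1 was at least 2-fold higher at 1 gene (background 2.34%) and lower at 18 (7.23%; background 4.06%), with a median of -0.16. The counts moved with the processing. With a pseudocount of 1 RPM, 0 genes were 2-fold higher and 6 lower in H3K4me3, 1 higher and 0 lower in H3K27ac, and 0 higher and 0 lower in H3K4me1. After centring on promoters without H3K27me3 the counts were 6 and 10 in H3K4me3, 6 and 15 in H3K27ac, so that more genes were lower than higher in the latter, and 1 and 24 in H3K4me1. The WT H3K4me3 libraries were shallow, at 3.43 M reads each, with a median of 20.3 reads in a chosen window.

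The largest differences were at low signal. H3K4me3 was 4.04 RPM in WT and 0.86 in Null at ZNF471, 4.49 and 0.99 at ZNF491, and 3.76 and 1.09 at ZNF844. It was 2.83 in WT and 6.23 in Null at ZNF582, 3.05 and 6.03 at ZNF527, and 5.02 and 9.79 at ZNF799, the last a marked promoter in WT. H3K27ac was 1.40 RPM in WT and 4.17 in Null at ZNF77, 1.14 and 3.27 at ZNF225, and 0.67 and 1.89 at ZNF799, whereas it was 2.19 and 0.61 at ZNF587, 1.55 and 0.53 at ZNF681, and 0.58 and 0.19 at ZNF585A. ZNF799 was thus a gene at which H3K27me3 was lower and both active marks were higher in Null ESCs.

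RNA of the ZNF genes was compared between genotypes on log2(RPM + 0.1), which shrinks the changes of genes near 0, with limma and Benjamini-Hochberg adjustment over all 20608 genes tested, and genes with an adjusted p under 0.05 were called. The library numbers paired the samples, so counts with the number as a replicate block are given beside those without it. The genes were expressed at low levels, as the median of the mean over libraries was 3.07 RPM, 179 genes reached 1 RPM and 42 reached 10 RPM. ZNF146, which encodes a protein of fingers alone, was the highest, at 98.8 RPM in WT on average, followed by ZNF358, ZNF787, ZNF331 and ZNF121. In bulk RNA, fewer cells expressing a gene and less RNA per cell cannot be told apart.

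The comparison of Null with Null+EZH2 ESCs set cells without doxycycline against cells that received it, both carrying the transgene. No group is described as given doxycycline without the transgene, so the drug and EZH2 cannot be told apart. EZH2 RNA in Null+EZH2 libraries was also above WT (256 to 385 against 59.5 to 68.6 RPM). Between Null and Null+EZH2 ESCs 2 of 210 ZNF genes were higher in Null (background 2.63%) and 0 were lower (background 0.524%), and with the replicate block 7 were higher (6.19%) and 1 was lower (3.21%). At an unadjusted p under 0.05 there were 8 higher and 7 lower without the block. The median log2 change was 0.08, against 0.02 over all genes tested. These shares are at or under those of all genes.

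ZNF772 was the gene with the largest rise. It had 30, 20 and 6 reads in the 3 WT libraries, 17, 18 and 27 in Het, 67, 48 and 53 in Null, and 8, 1 and 0 in Null+EZH2. The Null libraries lay above all others, and the log2 change was 3.04 against Null+EZH2 (SE 0.48, limma adjusted p = 0.00659) and 1.44 against WT (SE 0.48, limma adjusted p = 0.0392). Its H3K27me3 was also higher in Null, at 6.76 RPM against 3.84 in WT and 3.35 in Null+EZH2. H3K4me3 in the same window was 4.79 RPM in Null, 2.78 in WT and 1.94 in Null+EZH2. ZNF552 had 294, 213 and 306 reads in WT, 310, 365 and 323 in Het, 535, 683 and 461 in Null, and 298, 214 and 157 in Null+EZH2. It rose in Null by 0.85 against Null+EZH2 (SE 0.20, limma adjusted p = 0.0417) and by 0.93 against WT (SE 0.20, limma adjusted p = 0.00491). The call of ZNF552 against Null+EZH2 was held in only 4 of 13 alternative settings, and that of ZNF772 in 12 of 12, but the call of ZNF772 against WT was held in 6 of 12.

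With the block, ZNF431, ZNF792, ZNF296, ZNF468 and ZNF154 were also called higher in Null than in Null+EZH2, and ZNF486 lower. ZNF486 had 0 reads in all 3 Null libraries, 13, 14 and 11 in Null+EZH2 and 1, 20 and 22 in WT. Over the group it was at least 18-fold lower in Null than in Null+EZH2 ESCs (against a floor of 3 reads in the 3 libraries, limma adjusted p = 0.0631 without the block and 0.0188 with it).

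Comparison of Null with WT ESCs gave more calls, and most were lower. Here 7 of 210 ZNF genes were higher (3.33%; background 12.6%) and 40 were lower (19.05%; background 18.8%). With the replicate block 13 were higher (background 17.3%) and 65 lower (background 28.0%). The share of lower genes was thus close to the background, and the share of higher genes was below it. The median log2 change was -0.32, against -0.13 over all genes, -0.29 over the 243 ZNF genes tested on other chromosomes and 0.01 over the 1284 other genes tested on chromosome 19. Of the ZNF genes elsewhere 18 were higher and 71 lower. Scaling the libraries to a median gene ratio of 1 moved the median of all genes to -0.01 and that of the chromosome 19 ZNF genes to -0.20, and changed the calls to 11 higher (background 16.4%) and 25 lower (background 13.7%).

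**Figure D4:**
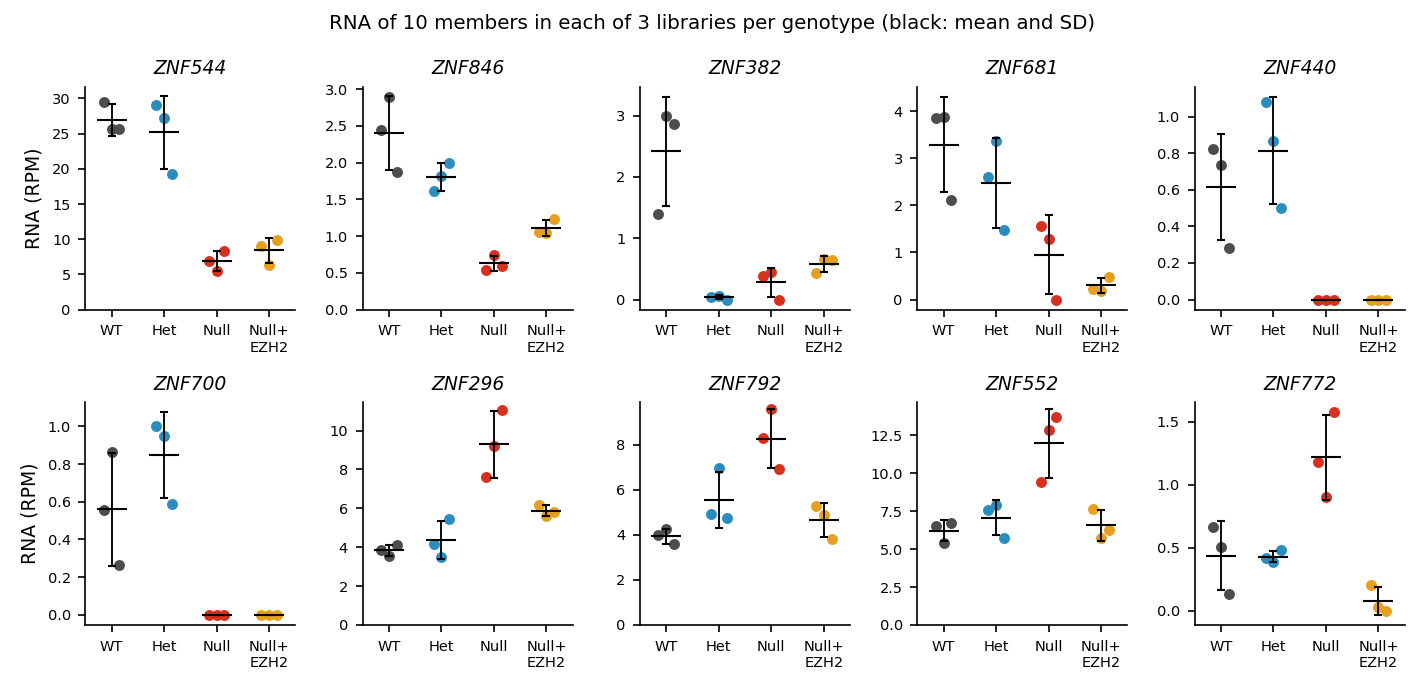
RNA level in RPM of single chromosome 19 ZNF genes in each of the 12 libraries (3 per genotype, 1 point per library, with the group mean). ZNF544 and ZNF846 were low in Null and Null+EZH2 libraries alike, whereas ZNF772 was highest in the Null libraries (0.901 to 1.57 RPM).

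Among the lower genes ZNF544 had the smallest adjusted p of those named. It had 1329, 1011 and 1172 reads in WT, 1185, 1260 and 1081 in Het, 396, 291 and 280 in Null, and 349, 239 and 247 in Null+EZH2, or 26.9 ± 2.24, 25.2 ± 5.21, 6.91 ± 1.43 and 8.42 ± 1.80 RPM (SD, n = 3 libraries each). WT and Het libraries lay apart from all libraries of the lines with no intact EZH2 allele, and the Null and Null+EZH2 libraries overlapped. The log2 change was -1.96 in Null (SE 0.22, limma adjusted p = 8.16e-05) and -1.69 in Null+EZH2 (SE 0.22, limma adjusted p = 0.000841), both against WT. At the window nearest its start H3K4me3 was 12.4 RPM in WT, 15.02 in Het, 6.71 in Null and 5.82 in Null+EZH2, with WT and Het again on one side and Null and Null+EZH2 on the other. H3K27me3 there was 3.11 RPM in WT, 3.01 in Het, 6.68 in Null and 5.22 in Null+EZH2. ZNF846 had 110, 114 and 86 reads in WT, 66, 84 and 112 in Het, 31, 40 and 20 in Null, and 41, 39 and 31 in Null+EZH2. It fell by 1.77 in Null (SE 0.24, limma adjusted p = 0.000289) and by 1.03 in Null+EZH2 (SE 0.24, limma adjusted p = 0.0183), and H3K4me3 nearest its start was 11.1 RPM in WT, 13.05 in Het, 7.45 in Null and 7.47 in Null+EZH2.

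The other large falls had fewer reads or wider spread. ZNF160, whose product represses TLR4 transcription, had 23.6, 52.0 and 24.4 RPM in WT and 10.2, 9.14 and 7.66 in Null, with a log2 change of -1.79 (SE 0.40, limma adjusted p = 0.00508). Null+EZH2 libraries of ZNF160 had 12.2, 20.02 and 22.1 RPM. ZNF132 had 1.73, 2.18 and 1.68 RPM in WT and 0.704, 0.507 and 0.534 in Null, and fell by 1.53 (SE 0.25, limma adjusted p = 0.000803). ZNF382, which encodes a KRAB repressor, had 63, 118 and 131 reads in WT, 2, 3 and 0 in Het, 22, 24 and 0 in Null, and 17, 25 and 16 in Null+EZH2. It fell by 3.00 in Null (SE 0.56, limma adjusted p = 0.00185) and by 4.15 in Het (SE 0.56, limma adjusted p = 0.00416). H3K4me3 at ZNF382 was 8.46 RPM in WT, 3.39 in Het, 4.92 in Null and 3.55 in Null+EZH2, and the gene overlaps ZNF529. ZNF681 had 174, 153 and 97 reads in WT, 106, 156 and 83 in Het, 89, 69 and 0 in Null, and 9, 7 and 12 in Null+EZH2. It fell by 2.41 in Null (SE 0.82, limma adjusted p = 0.0414), a call that was lost without Null replicate 3, the library with 0 reads, and without each of the WT libraries. ZNF585A had 36, 36 and 11 reads in WT and 7, 3 and 0 in Null (log2 change -2.16, SE 0.50, limma adjusted p = 0.00655).

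In Null replicate 3, reads were also missing or few at other genes: ZNF382 and ZNF681 had none, and ZNF91, which silences SVA elements, had 2.40 RPM against 9.64 and 8.39 in the other two. The WT libraries of ZNF91 had 10.9, 12.5 and 5.22 RPM, and its log2 change in Null was -0.61 (limma adjusted p = 0.403 without the block and 0.0353 with it). In every genotype replicate 3 had the lowest share of reads on the ZNF genes. It was 0.208% in WT, 0.204% in Het, 0.183% in Null and 0.170% in Null+EZH2. A lower share in replicate 3 was thus not particular to Null ESCs. Null replicate 3 also had the fewest reads on genes of the Null libraries. Without Null replicate 3, 25 ZNF genes were called lower than in WT, and 17, 18 and 26 were without WT replicate 2, Null replicate 2 and WT replicate 1. Summed markers of endoderm and mesoderm were higher in Null than in WT libraries. Among single markers CXCR4 (6.60 to 9.99 RPM in WT and 8.34 to 23.8 in Null) and KDR (38.2 to 57.6 and 41.4 to 79.4) overlapped. So did MESP1 (0.507 to 1.01 and 0.510 to 2.76) and TBX6 (1.58 to 2.73 and 1.06 to 2.85), and the others were higher in Null without overlap. All 7 endoderm markers summed to 25.5 to 49.4 RPM in WT, 15.1 to 127 in Het, 105 to 207 in Null and 26.3 to 77.4 in Null+EZH2 libraries, and all 8 mesoderm markers to 53.7 to 84.4, 57.5 to 102, 185 to 254 and 78.6 to 179. Summed fibroblast markers (213 to 304 RPM in WT and 92.1 to 341 in Null) and neuroectoderm markers (37.4 to 105 and 50.9 to 67.1) overlapped between WT and Null. Most of the neuroectoderm sum was OTX2 (18.9 to 86.1 RPM in WT and 49.01 to 65.4 in Null). Single neuroectoderm markers did differ without overlap. SOX1 (3.496 to 9.41 RPM in WT and 0 to 0.0297 in Null) and PAX6 (3.37 to 8.48 and 0.51 to 1.76) were lower in Null. LHX2 was higher (0.38 to 0.699 and 0.801 to 1.09). Single fibroblast markers also differed without overlap, in both directions. COL3A1 (0.153 to 3.96 RPM in WT and 4.70 to 109 in Null) and POSTN (0.42 to 1.07 and 1.13 to 2.45) were higher in Null. COL1A2 was lower (159 to 198 and 62.0 to 125). No list had a marker at 0 reads in all WT or all Null libraries, and the part of these cells in the ZNF gene values was not tested.

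In 39 of the 40 lower genes the Null and WT libraries did not overlap, as was the case for 88 of all 210 ZNF genes and for 49.8% of all genes tested. None of the 40 had an H3K27me3(WT) promoter. Across the 210 genes the log2 change had a Spearman's rho of -0.21 with Null H3K27me3, 0.28 with the H3K4me3 difference and 0.22 with the H3K27ac difference, as a description over genes that share libraries. The 11 genes with an H3K27me3(WT) promoter had a median log2 change of 0.13 in Null against WT, and 1 of them, ZNF792, was called. ZNF536, the most strongly marked of them, had 24, 3 and 25 reads in WT, 13, 5 and 42 in Het, 12, 0 and 0 in Null, and 1, 2 and 2 in Null+EZH2. Its RNA was thus not higher in Null ESCs, where its H3K27me3 was lowest (log2 change -1.51, SE 0.63, limma adjusted p = 0.0842, and 0.0324 with the block).

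The 7 genes that rose in Null against WT were ZNF296, ZNF350, ZNF792, ZNF582, ZNF443, ZNF552 and ZNF772. ZNF296, which encodes a factor that interacts with KLF4 in pluripotent cells, had 3.86, 3.55 and 4.13 RPM in WT, 4.16, 3.5 and 5.46 in Het, 7.60, 9.20 and 11.1 in Null, and 6.17, 5.63 and 5.84 in Null+EZH2. The Null libraries lay above all others, with a log2 change of 1.24 (SE 0.20, limma adjusted p = 0.000897), and H3K27me3 was 3.10 RPM in WT and 0.69 in Null. ZNF792 had 3.97, 4.26 and 3.58 RPM in WT, 4.92, 6.96 and 4.77 in Het, 8.30, 9.57 and 6.95 in Null, and 5.27, 4.90 and 3.84 in Null+EZH2, a log2 change of 1.04 (SE 0.21, limma adjusted p = 0.00304). ZNF350, also known as ZBRK1, a repressor that binds BRCA1, had 1.11, 2.21 and 0.787 RPM in WT and 3.20, 3.04 and 2.43 in Null (log2 change 1.14, SE 0.32, limma adjusted p = 0.0185). Its Null+EZH2 libraries had 2.98, 2.55 and 2.24 RPM. ZNF582 rose by 0.90 (SE 0.29, limma adjusted p = 0.0320) and ZNF443 by 0.81 (SE 0.29, limma adjusted p = 0.0498). The calls of ZNF582 and ZNF443 were held in 6 of 12 and 6 of 13 alternative settings, that of ZNF350 in 9 of 13.

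Several genes lower in Null ESCs were also low in Null+EZH2 ESCs. Between Null+EZH2 and WT ESCs 0 of 210 ZNF genes were higher (limma, 2 at an unadjusted p under 0.05; background 3.4%) and 23 were lower (11.0%; background 6.9%), with a median log2 change of -0.36 against -0.15 over all genes. With the replicate block 3 were higher (background 6.26%) and 50 lower (background 16.1%), and after median-ratio scaling 1 was higher (background 5.0%) and 11 were lower (background 4.26%). Leaving out any 1 of these 6 libraries gave 6 to 15 lower genes. Both comparisons with WT use the same WT libraries. Lower genes other than those above included ZNF283 (-1.90, SE 0.49, limma adjusted p = 0.0283), ZNF781 (-1.70, SE 0.46, limma adjusted p = 0.0351) and ZNF154, whose promoter is often methylated in tumours. ZNF154 had 12.3, 13.1 and 9.40 RPM in WT, 9.92, 8.88 and 5.94 in Null, and 4.89, 5.01 and 4.92 in Null+EZH2, and fell by 1.20 in the last (SE 0.21, limma adjusted p = 0.00424). ZNF681 fell by 3.10 in Null+EZH2 (SE 0.82, limma adjusted p = 0.0314).

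A stretch of 7 neighbouring genes within the cluster at 11.5 to 12.6 Mb, noticed after the values were seen, had no reads in either line derived from the Null clone. It runs over 213 kb from ZNF441 through ZNF491, ZNF440, ZNF439, ZNF69 and ZNF700 to ZNF763. The promoters of its members with the most reads, ZNF440 and ZNF700, are printed beside that of ZNF544, a gene whose RNA fell in Null ESCs without reaching 0 reads. Each is the 250 bases before the RefSeq start on GRCh38.p14 (plus strand of chromosome 19, at chr19:11814023-11814272, chr19:11924857-11925106 and chr19:58228664-58228913), with each CG in capitals.
ZNF440 promoter: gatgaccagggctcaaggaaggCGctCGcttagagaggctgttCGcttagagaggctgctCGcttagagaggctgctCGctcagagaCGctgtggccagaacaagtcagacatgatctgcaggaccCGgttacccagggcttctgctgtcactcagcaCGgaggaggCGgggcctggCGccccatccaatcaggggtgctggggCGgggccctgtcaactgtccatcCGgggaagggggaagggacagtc
ZNF700 promoter: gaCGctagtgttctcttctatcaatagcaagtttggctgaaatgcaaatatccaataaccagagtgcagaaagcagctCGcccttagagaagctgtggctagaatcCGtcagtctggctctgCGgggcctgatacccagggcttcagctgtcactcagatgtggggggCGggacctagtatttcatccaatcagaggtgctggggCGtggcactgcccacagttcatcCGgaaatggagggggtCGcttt
ZNF544 promoter: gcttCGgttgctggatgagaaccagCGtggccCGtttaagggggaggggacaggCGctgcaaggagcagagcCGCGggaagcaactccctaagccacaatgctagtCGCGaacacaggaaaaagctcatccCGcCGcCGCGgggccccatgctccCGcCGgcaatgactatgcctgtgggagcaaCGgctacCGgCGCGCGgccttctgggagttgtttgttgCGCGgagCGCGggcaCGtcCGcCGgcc
The stretch printed for ZNF440 holds 12 CG, that for ZNF700 holds 8 and that for ZNF544 holds 26. In windows of 300 bases around the start, the median was 20 CG over the 213 ZNF genes with a RefSeq promoter and 14 over all 27305 promoters. The core of the YY1 motif (CCATNTT, or AANATGG on the other strand) was in 18.8% of the ZNF promoters and in 15.9% of all.

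The 7 genes together had 195 reads in the 3 WT libraries and 320 in the 3 Het libraries, and 0 in the 3 Null and 0 in the 3 Null+EZH2 libraries. ZNF440 had 37, 29 and 13 reads in WT and 44, 40 and 28 in Het, and ZNF700, which overlaps ZNF763, had 25, 34 and 12 in WT and 41, 44 and 33 in Het. Against a floor of 3 reads over the group, ZNF440 was at least 29.1-fold lower in Null and at least 20.5-fold lower in Null+EZH2 than in WT (limma adjusted p = 0.000273 and 0.00104), and ZNF700 at least 26.1-fold and 18.4-fold lower (limma adjusted p = 0.000303 and 0.00115). ZNF763, at 18 reads in WT and 38 in Het, and ZNF441, at 15 and 28, followed the same pattern with fewer reads. ZNF491, ZNF439 and ZNF69 had at most 7 reads in WT, near the floor.

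The nearest members with reads on either side were read in all genotypes. On the side of ZNF441, ZNF823 had 116, 123 and 121 reads in WT and 118, 136 and 78 in Null. On the side of ZNF763, the next members ZNF433, ZNF878 and ZNF844 had at most 1 read in any library, so where the loss of reads ends cannot be told. Beyond them ZNF788 had 14, 20 and 12 reads in WT, 6, 4 and 5 in Het, 12, 5 and 2 in Null, and 2, 7 and 1 in Null+EZH2. ZNF20, which overlaps it, had 108, 114 and 105 reads in WT, 87, 79 and 76 in Het, 104, 61 and 43 in Null, and 61, 46 and 28 in Null+EZH2. ZNF788 and ZNF20 were called lower in Null than in WT (limma adjusted p = 0.0459 and 0.0315), calls held in 4 of 12 and 7 of 13 alternative settings. ZNF625, farther on, had 109, 105 and 97 reads in WT and 143, 90 and 88 in Null. At the start windows of the 7 genes input chromatin was 0.87 to 1.61 RPM in WT and 0.79 to 1.58 in Null, so the DNA was recovered in both. H3K4me3 was 2.18 to 4.29 RPM in WT, 1.71 to 5.93 in Het, 0.82 to 2.32 in Null and 1.44 to 1.91 in Null+EZH2. H3K27me3 was 2.62 to 4.85 RPM in WT, 3.56 to 5.56 in Het, 4.88 to 6.07 in Null and 2.55 to 3.63 in Null+EZH2. In this stretch, H3K27me3 thus differed between Null and Null+EZH2 ESCs while the RNA was at 0 reads in both. An effect of EZH2 and a change that arose in the 1 clone cannot be told apart here.

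Het ESCs differed little from WT. Of the 210 ZNF genes 1 was higher (background 0.18%) and 2 were lower (background 0.966%), with a median log2 change of -0.20 against -0.09 over all genes. With the replicate block 1 was higher (background 0.718%) and 5 were lower (background 2.16%), and 6 were lower without Het replicate 3 and 1 without any of the other 5 libraries. ZNF90 rose in Het, with 0.0666, 0.0761 and 0.153 RPM in WT and 0.490, 0.411 and 0.552 in Het (log2 change 1.57, SE 0.31, limma adjusted p = 0.0338). ZNF461 had 1.04, 1.85 and 1.66 RPM in WT and 0.563, 0.519 and 0.213 in Het, and fell by 1.64 (SE 0.33, limma adjusted p = 0.0351). The calls of ZNF90 and ZNF461 were held in 5 of 12 and 3 of 12 alternative settings, that of ZNF382 in 10 of 12.

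Members with a role known from other work included called and uncalled genes. ZNF274, which directs SETDB1 to the finger exons of ZNF genes, had 17.2, 18.99 and 18.3 RPM in WT and 14.3, 12.7 and 15.6 in Null, a log2 change of -0.36 (SE 0.14, limma adjusted p = 0.0629 without the block and 0.0279 with it). ZNF331, an imprinted gene, fell by 0.57 in Null against WT (SE 0.14, limma adjusted p = 0.0103), and ZNF558 by 0.73 (SE 0.22, limma adjusted p = 0.0246). ZNF121, where the H3K27me3 signal in Null was highest, had 30.1, 36.3 and 34.4 RPM in WT and 26.0, 17.98 and 22.2 in Null and fell by 0.62 (SE 0.16, limma adjusted p = 0.0119). ZNF93, which represses L1 elements, had 0 reads in all libraries. ZNF568 had 2, 10 and 2 reads in WT, 0, 0 and 2 in Het, 6, 3 and 0 in Null, and 0, 2 and 0 in Null+EZH2, and ZNF541 had at most 2 reads in any library, so neither was tested.

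Of 23 genes for partners of KRAB zinc finger proteins and H3K9 methylation, 4 fell (background 18.8%) and 1 rose (background 12.6%) in Null against WT, and 0 were called between Null and Null+EZH2 ESCs (limma, 2 at an unadjusted p under 0.05). CBX5, which encodes HP1 alpha, fell by 1.31 (SE 0.19, limma adjusted p = 0.000435), CBX1 by 0.69 (SE 0.21, limma adjusted p = 0.0258), CHD3 by 0.55 (SE 0.18, limma adjusted p = 0.0351) and SETDB1 by 0.49 (SE 0.15, limma adjusted p = 0.0243). SUV39H1, an H3K9 methyltransferase, rose by 0.85 (SE 0.23, limma adjusted p = 0.0141). CBX5 was also lower in Null+EZH2 than in WT (-0.68, SE 0.19, limma adjusted p = 0.0402).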

How the data were processed

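RNA-seq (12 libraries) and ChIP-seq, native for 4 histone marks and input (2 libraries per column, although the methods give 3 replicates) and crosslinked for EZH2 (1 library), were used as deposited. The authors trimmed reads with Trim Galore 0.4.0, aligned them to GRCh38 with TopHat2 2.0.12 (RNA) or Bowtie2 2.2.5 (ChIP), per the submitters' processing notes, counted them in SeqMonk without regard to strand, and deposited log2 RPM per gene and per 5 kb window around start sites. A gene without a read was set to 0.9 of 1 read. Values were returned to RPM. Below 1000 reads, 100.0% of RNA values were whole multiples of 1 read within 0.02, so reads could be recovered. No value column was left unmatched. The authors tested raw counts with DESeq2. Here the deposited values were log2, so a test on the log scale was used and the recovered reads entered an alternative.

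limma 3.58.1 (trend, R 4.3.3) was fitted to log2(RPM + 0.1) of all 12 libraries for the 20608 genes that averaged 0.1 RPM or more. The p-values measure the spread between libraries, as the study calls them biological replicates but the labels do not say whether they were separate cultures. An exact permutation test of 3 against 3 libraries could not go below p = 0.1. Same-numbered libraries of different genotypes deviated together (r 0.107 to 0.560 over 18 pairs, mean 0.33, against a mean of -0.16 over 36 other pairs), so the numbers pair the samples, as read from the data. The fit was tested on simulated data. Alternatives were the replicate block, a pseudocount of 1 RPM, other filters, median-ratio scaling, limma voom on recovered reads, only the 2 genotypes compared, leaving out each library and, for ChIP-seq, other windows, centring, input subtraction and a 1.5-fold threshold. Differences in ChIP-seq were computed on log2(RPM + 0.1). At 9.11 (WT) and 13.8 (Null) M reads per H3K27me3 library, a chosen window held a median of 28.7 and 60.8 reads, and bounds from the floor of 3 reads cover counting error only.

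Genes named are members called in a comparison (over 10 in a direction, the 10 with the largest change and no overlap of libraries), the 8 with the highest WT and the 5 with the highest Null H3K27me3, the 5 with the highest EZH2, the 5 with the highest RNA, 9 with a role in other work, and the 3 with the largest rise and fall in H3K27ac and H3K4me3. The other named members were chosen after their values were seen. The members, lists and comparisons were chosen with earlier results of these data known. Fingers and KRAB A boxes came from protein patterns over GENCODE v44 on GRCh38, and promoters from RefSeq.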

Additional observations from a re-analysis of the deposited data

How the results depend on the processing

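The library numbers pair the samples, and with the replicate block the ZNF genes called higher and lower numbered 7 and 1 in Null against Null+EZH2 (2 and 0 without it), 13 and 65 in Null against WT (7 and 40), 1 and 5 in Het against WT (1 and 2), and 3 and 50 in Null+EZH2 against WT (0 and 23). Null against Null+EZH2 gave 1 higher with no filter, with voom or with only those genotypes (then 1 lower), and 0 with a filter of 1 RPM. Null against WT gave 4 higher with no filter, and 11 higher and 25 lower with median-ratio scaling. Het against WT gave 0 higher with no filter, a filter of 1 RPM, voom or only those genotypes, and 0 lower with the first 3 of these and 1 with the last or with median-ratio scaling. Null+EZH2 against WT gave 1 higher and 11 lower with median-ratio scaling, and 15 lower with no filter and 11 with voom. Leaving out 1 library gave 1 to 2 higher (1 without Null replicate 2 or any Null+EZH2 library) and 0 to 0 lower in Null against Null+EZH2, 3 to 5 (3 or 4 without Null replicate 1 or 2 or WT replicate 2 or 3) and 17 to 38 in Null against WT, 0 to 1 (0 without WT or Het replicate 1 or 2) and 1 to 6 in Het against WT, and 0 to 1 and 6 to 15 in Null+EZH2 against WT. Of 955 refits of the 75 calls 642 kept the call, 313 lost it and 0 reversed. The cause of these losses was not tested.

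For H3K27me3 in Null against WT, genes at least 2-fold lower numbered 15 with the mean over all windows of a gene. A pseudocount of 1 RPM gave 7 higher and 13 lower, and centring on promoters without H3K27me3 gave a median of 1.09, with 132 higher and 10 lower. Subtracting input gave 50 higher, and a 1.5-fold threshold 98 higher. The median was 0.10 for H3K4me3 after the same centring, 0.10 for H3K27ac with a pseudocount of 1 RPM and -0.039 after centring, and -0.0076 for H3K4me1 in the window with the highest H3K4me3. The 81 genes over the threshold in Null became 56 to 111 and the 166 over input 146 to 185, with 2 of the window choices made after seeing the data.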
